A study of Caenorhabditis elegans with 40 samples.

Results

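Nuclear hormone receptors are transcription factors that bind DNA through 2 zinc fingers and whose activity many small lipophilic ligands control. The nematode Caenorhabditis elegans carries a greatly expanded family, most of which descends from an ancestor related to the vertebrate receptor HNF4, and a minority of which has a clear counterpart in flies or vertebrates. Its members are known for controlling molting, fat and energy metabolism, the response to vitamin B12 and methionine supply, and defence. The genes described here are those of the RNA count table whose symbol starts with nhr-, without nhr-156, which gave 82 members among 9532 genes. The receptors nhr-25, nhr-62, nhr-67, nhr-111, nhr-176 and nhr-239 were not analysed here.

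RNA was measured in whole day 4 animals carrying 1 null allele of a ribosomal protein gene. Of the large subunit these were rpl-33(0)/+ or rpl-5(0)/+, and of the small subunit rps-23(0)/+ or rps-10(0)/+. The other chromosome of each pair was a balancer, a rearranged chromosome that suppresses recombination, which was mIn1 (written mc6 in the labels) for both large subunit mutants, tmC20 for the rps-10 mutant and tmC5 for the rps-23 mutant. The controls were wild type for these genes and carried the same balancers. They were collected at day 3, as L4 larvae of the stage of the mutants, and at day 4, when the labels call them pregravid adults, except for replicate 2 of tmC20 and of tmC5, labelled L4. The columns headed rpl-5(0)/+ and rpl-33(0)/+ held the same counts for every gene and were used once, as a pair of libraries, called the rpl libraries, whose genotype the headings do not settle. A tmC20 control column was likewise deposited under both ages, with L4 as its labelled stage, and was used once. This left 17 libraries, with 2 in each of 3 mutant groups and 4 mIn1, 3 tmC20 and 4 tmC5 controls. Nothing in the labels says which replicates came from separate cultures, so the p values measure the spread between these libraries.

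Depth ran from 1017787 to 2384186 counts per library, of which the members took between 0.103% and 0.207%. At this depth most members were low. The median level over the 17 libraries ran from 0.780 to 94.2 CPM (counts per library size, in parts of 1e6 and scaled by the TMM method), was under 10 CPM in 42 of the 82 members and exceeded 50 CPM in 3. The first principal component, which held 69.6% of the variance of the 1000 most variable genes, separated the mIn1 and tmC20 controls by age. On this axis the tmC5 libraries headed day 3 and day 4 did not separate. Of each heading, 1 of the 2 libraries grouped with libraries of the opposite age. For day 4 the labels give replicate 2 as L4, though the heading does not say which column it is. Both libraries headed day 3 are labelled L4, and 1 of them grouped with the adults. Ages of tmC5 are given as headed. The test of age used the mIn1 and tmC20 controls. Both tmC5 columns of day 4 have the same heading, so the adult replicate could not be told from replicate 2, labelled L4.

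The part of the protein that most directly sets which DNA a receptor recognises is the P-box, a short stretch at the end of the first zinc finger. The coding bases of this finger are printed here for nhr-114 and nhr-17, the members whose RNA differed in the mutants, for nhr-68 and nhr-10, which act in the same metabolic circuit as nhr-114, and for nhr-41, nhr-31, nhr-14 and nhr-119, whose RNA was lower in older controls. Each was read from the WBcel235 genome in the direction of the gene, with the 18 bases that hold the P-box in capitals.
nhr-114: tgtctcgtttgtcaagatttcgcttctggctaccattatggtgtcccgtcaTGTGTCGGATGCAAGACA
nhr-17: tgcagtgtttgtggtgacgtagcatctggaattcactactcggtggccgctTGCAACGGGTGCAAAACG
nhr-68: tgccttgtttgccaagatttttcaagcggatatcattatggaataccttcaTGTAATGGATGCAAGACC
nhr-10: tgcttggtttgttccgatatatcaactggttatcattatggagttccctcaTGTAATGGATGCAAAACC
nhr-41: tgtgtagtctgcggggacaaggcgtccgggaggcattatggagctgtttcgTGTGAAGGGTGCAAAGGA
nhr-31: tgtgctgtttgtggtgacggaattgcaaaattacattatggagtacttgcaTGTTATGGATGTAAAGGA
nhr-14: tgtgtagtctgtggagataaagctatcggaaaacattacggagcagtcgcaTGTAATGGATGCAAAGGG
nhr-119: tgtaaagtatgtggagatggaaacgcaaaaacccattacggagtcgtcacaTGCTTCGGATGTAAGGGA

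These stretches lie in coding exons, at V:4187251-4187319 on the plus strand in exon 1 of 7 for nhr-114 and at X:12667646-12667714 on the minus strand in exon 2 of 9 for nhr-17. Those of nhr-68 (V:11573478-11573590, plus strand) and nhr-10 (III:7114700-7115383, minus strand) are interrupted by an intron. The stretch is at IV:1393980-1394048 for nhr-41 (plus strand), IV:8025833-8025901 for nhr-31, X:8476051-8476119 for nhr-14 and II:2800265-2800333 for nhr-119, the last 3 on the minus strand. The finger pattern was found in the longest coding sequence of 69 members and not found in 13. By the residues that the capital bases encode, the 69 fell into 22 classes, the largest of which held 19, 11, 9 and 6 members. The nhr-17 sequence belongs to the class of 11, together with nhr-10 and nhr-68, while that of nhr-114 was shared with no other member. Over the 69 bases, nhr-114 was most like nhr-68, with 50 identical, against a median of 37 over all pairs of members. The class of 6 held 5 of the 7 conserved receptors in the table (nhr-6, nhr-23, nhr-41, nhr-85 and nhr-91) together with nhr-2, and the other conserved receptors, nhr-8 and nhr-48, formed a class of their own. By the best match of each member, no pair was near-identical along its coding sequence. The longest such match was 71.7% identity between nhr-68 and nhr-101 over 1160 bases. The closest match of nhr-114 was 67.4% identity to nhr-68 over 592 bases. That of nhr-17 was 72.8% to nhr-61 over a shorter stretch.

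The first question was which receptor genes differed in RNA level between each mutant and the controls of its balancer. In the rpl libraries, nhr-114 fell and nhr-17 rose. In rps-23(0)/+ the same genes passed the test with the same directions, and in rps-10(0)/+ no member passed. No other member passed. The controls of both ages were pooled within each balancer here, so the spread in the test includes the difference between ages. Counts of 81 members were high enough to be tested in these comparisons, and the remaining gene, nhr-121, was too low.

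The receptor nhr-114 (WBGene00003704, V:4187202-4190008 on the plus strand) is known for inducing genes of the methionine cycle and for protecting the germline on some bacterial diets. Its RNA was 15.04 and 9.46 CPM in the rpl libraries. It was 101 and 92.0 CPM in the day 3 mIn1 controls and 58.1 and 56.9 CPM in those of day 4. Both mutant libraries were thus far below every mIn1 control, and the older controls were below the younger. The log2 fold change was -2.65 (SE 0.48, edgeR adjusted p = 0.0111, n = 2 against 4), a level 6.26-fold lower.

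In rps-23(0)/+, nhr-114 had 12.1 and 10.6 CPM. The tmC5 controls had 39.2 and 78.2 CPM in the libraries headed day 3 and 102 and 39.5 CPM in those headed day 4. The mutant libraries again lay below all controls, with a log2 fold change of -2.50 (SE 0.47, edgeR adjusted p = 0.0257, n = 2 against 4). In rps-10(0)/+, nhr-114 had 32.95 and 30.6 CPM, against 94.2 CPM at day 3, 79.8 CPM in the library headed with both ages and 54.8 CPM at day 4 in the tmC20 controls. These groups did not overlap either, but the log2 fold change of -1.26 (SE 0.44) did not pass the test (edgeR adjusted p = 1.00, n = 2 against 3).

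**Figure D1:**
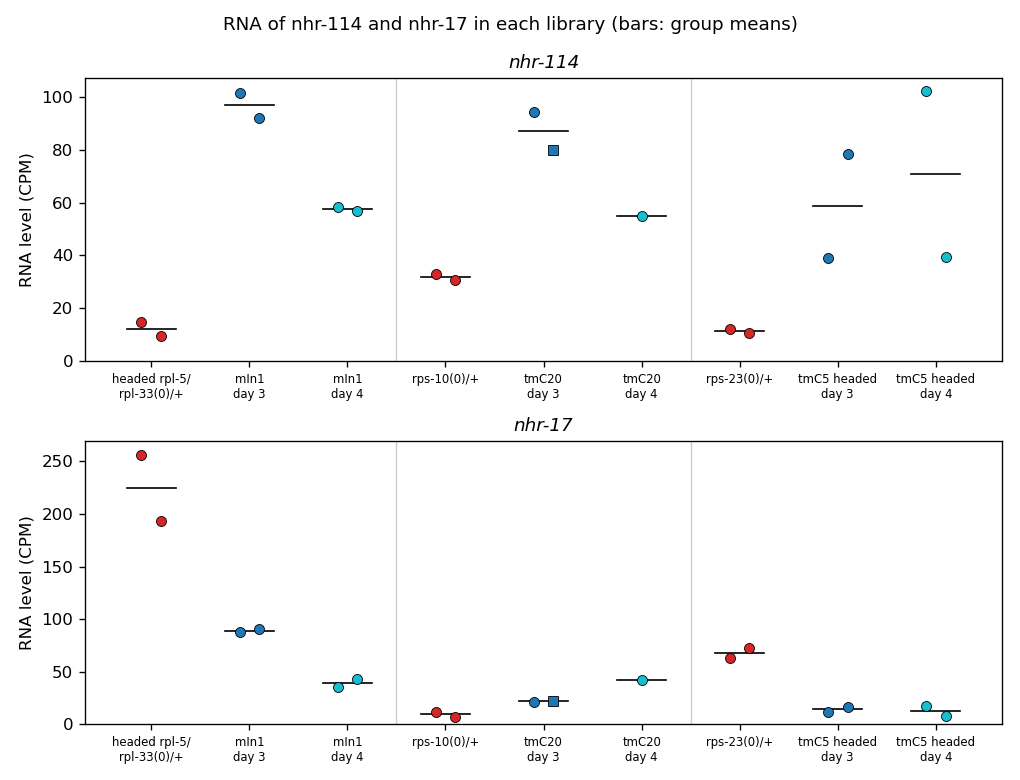
RNA level in CPM (vertical axis) of nhr-114 and nhr-17 in each library, by group (horizontal axis), with mutants in red, day 3 controls in blue and day 4 controls in cyan; each point is a library, the square is the library deposited under both ages, drawn with day 3, and the bars are group means. For nhr-114 the 6 mutant libraries lie between 9.46 and 32.95 CPM and all controls at 39.2 CPM or more, while nhr-17 was above the controls of the same balancer in the rpl libraries and in rps-23(0)/+, and below them in rps-10(0)/+.

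With all 6 mutant libraries against all 11 controls, nhr-114 was the only member of 65 tested that passed, with a log2 fold change of -1.93 (SE 0.32, edgeR adjusted p = 0.00326), a level 3.82-fold lower. Of all genes 1.91% passed in that comparison. It was also the only tested member with every mutant library below every control library, a pattern that 0.386% of all genes showed. No member had every mutant library above every control, which 0.468% of all genes did. The fold change of nhr-114 over all mutants stayed between -2.21 and -1.82 when each library was left out in turn, with an edgeR adjusted p of at most 0.0140. Without the tmC5 controls it was -2.02 (edgeR adjusted p = 0.00901), and without the rpl libraries it was -1.74 (edgeR adjusted p = 0.0351). On the columns with a replicate number it was -1.97 with the number as a block, which did not pass (edgeR adjusted p = 0.0740), and -1.97 without the block (edgeR adjusted p = 0.0408). The change was not shown to differ among the mutant groups. The rpl libraries differed from rps-10(0)/+ by -1.39 on the log2 scale (SE 0.62, edgeR adjusted p = 0.604).

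Level per length, which allows genes to be compared, was given as CPM per kilobase of the longest annotated transcript. Over controls of both ages nhr-114 had the highest mean of all 82 members, at 47.6 CPM per kilobase, and in the mutants it ranked 20, at 12.1. The lipid regulator nhr-49 was second in both, at 42.2 and 40.3 CPM per kilobase. The order of this pair turned with age, since the mIn1 controls had 63.6 for nhr-114 and 43.1 for nhr-49 at day 3, and 37.8 and 43.3 CPM per kilobase at day 4. The ranks of nhr-97 (26.5 and 23.6 CPM per kilobase) and nhr-3 (21.1 and 22.9) were 3 and 5 in the controls and 3 and 4 in the mutants. The mean of nhr-17 moved from rank 4, at 22.6 CPM per kilobase, to rank 1, at 63.0, a mean that the rpl libraries dominated.

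The receptor nhr-17 (WBGene00003616, X:12663837-12667854 on the minus strand) had 257 and 193 CPM in the rpl libraries. The mIn1 controls had 87.6 and 90.4 CPM at day 3 and 35.5 and 43.4 CPM at day 4. Each mutant library was more than any control of its balancer, with a log2 fold change of 1.81 (SE 0.41, edgeR adjusted p = 0.0349). Against the day 3 controls alone the log2 fold change was 1.34 and no longer passed (edgeR adjusted p = 0.108).

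In rps-23(0)/+, nhr-17 had 62.9 and 72.3 CPM. The tmC5 controls had 12.1 and 16.6 CPM where headed day 3 and 17.2 and 7.59 CPM where headed day 4. The groups were well apart, with a log2 fold change of 2.34 (SE 0.43, edgeR adjusted p = 0.0198), a level 5.08-fold higher. In rps-10(0)/+ the levels were 12.1 and 6.91 CPM, below the tmC20 controls with 21.6, 22.5 and 42.1 CPM. That log2 fold change of -1.59 (SE 0.51) did not pass (edgeR adjusted p = 0.832).

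The controls of the 3 balancers also differed in nhr-17, since the mIn1 controls had 35.5 CPM or more and the tmC5 controls 17.2 CPM or less. The change in the rpl libraries exceeded that in rps-10(0)/+ by 3.40 on the log2 scale (SE 0.66, edgeR adjusted p = 0.0644). That in rps-23(0)/+ exceeded it by 3.94 (SE 0.67, edgeR adjusted p = 0.124). The test of any difference among the 3 mutant groups gave nhr-17 an edgeR adjusted p of 0.0783 and no member passed it, with 4 of 81 at an unadjusted p below 0.05. In the same test 0.0216% of all genes passed and 6.27% had an unadjusted p below 0.05, against 4.94% of the members. DESeq2, run as an alternative, called nhr-17 in this test and no other member, where it called 66 of all 9276 genes.

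These counts were read beside those over all genes. In the rpl libraries, 2 of 81 members passed, where 2.54% of all genes did. In rps-23(0)/+ 2 of 81 members passed, where 0.625% of all genes did. In rps-10(0)/+ 0 of 81 members passed by edgeR and 0 by DESeq2, with 3 at an unadjusted p below 0.05 in edgeR (nhr-17, nhr-114 and nhr-88). Of all genes 0.129% passed by edgeR and 3.18% were at an unadjusted p below 0.05, near the 3.704% of the members. DESeq2 called 34 of all 9276 genes there. Against controls of both ages, the median log2 fold change of the members was 0.09 in the rpl libraries, 0.01 in rps-10(0)/+ and -0.08 in rps-23(0)/+, where the medians over all genes were -0.02, -0.05 and -0.08. These medians are of TMM-scaled counts, and with library totals the median of all genes moved to -0.32, -0.06 and -0.25. The calls in the rpl libraries and in rps-23(0)/+ were lost when each mutant was fitted with its own controls alone, where nhr-114 had edgeR adjusted p values of 0.0665 and 0.155, and without either library of the mutant in question. Of the 81, 12 were lower and 10 higher in all 3 mutant groups and 59 had mixed signs. The share with the same sign in all 3 was 27.2% of the members, where it was 48.6% of all genes.

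**Figure D2:**
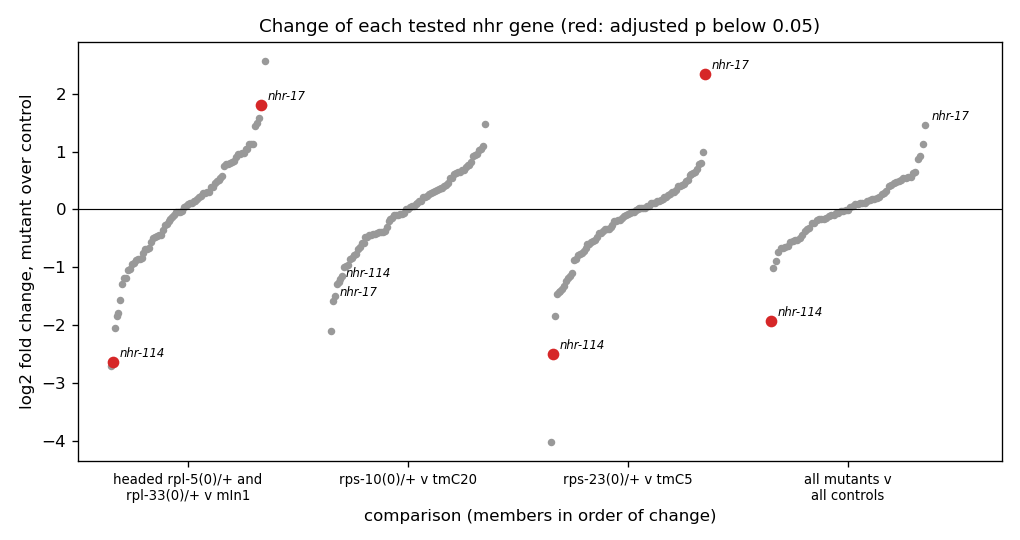
Log2 fold change of mutant over control (vertical axis) for every tested member in 4 comparisons (horizontal axis), in order of change; red points have an edgeR adjusted p below 0.05. Members lie on both sides of 0, and the red points are nhr-114 at -2.65, -2.50 and -1.93 and nhr-17 at 1.81 and 2.34. The lowest grey point, at -4.02 in rps-23(0)/+, is nhr-2, with an SE of 2.33.

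The age of the controls changed these counts. Against the day 3 mIn1 controls alone, 1 of 82 members passed in the rpl libraries (nhr-114, log2 fold change -2.97, edgeR adjusted p = 0.0124), where 0.868% of all genes did. Against the day 4 mIn1 controls alone, 9 of 81 passed, where 22.3% of all genes did. Of these nhr-114 was lower, and nhr-17, nhr-143, nhr-120, nhr-19, nhr-104, nhr-14, nhr-133 and nhr-131 were higher. Their log2 fold changes there ran from 1.81 for nhr-131 to 3.84 for nhr-104. The median over the members moved with the control age as well. It was -0.19 against day 3 and 0.61 against day 4 controls, where 54 of 81 members were higher by sign and the medians over all genes were 0.02 and 0.05.

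The other members with the largest changes over all mutants did not pass. On the lower side these were nhr-101 (log2 fold change -1.02), nhr-130 (-0.89), nhr-137 (-0.74) and nhr-274 (-0.67). On the higher side were nhr-120 (1.13), nhr-131 (0.93), nhr-107 (0.87) and nhr-79 (0.65). Their edgeR adjusted p values ran from 0.152 for nhr-101 to 0.356 for nhr-79. For nhr-101 the mutant libraries had between 2.00 and 11.3 CPM and the controls between 5.87 and 18.6, so that the ranges overlapped.

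By role, the receptors of metabolism related to HNF4 numbered 9 in the table, of which nhr-114 alone passed in any mutant comparison. The receptor nhr-68, which with nhr-10 switches on propionate breakdown when vitamin B12 is short, had 7.02 and 10.5 CPM in the rpl libraries. The mIn1 controls had between 18.2 and 33.5 CPM. In rps-23(0)/+ it had 6.82 and 10.6 CPM against 11.6 to 40.8 in tmC5 controls, and in rps-10(0)/+ 31.02 and 34.04 CPM against 13.3 to 50.5 in tmC20 controls. The mutant libraries were below their controls in the first pair of comparisons and within them in rps-10(0)/+, and no change passed (log2 fold changes -1.57, -1.44 and 0.03 in the order rpl, rps-23 and rps-10, lowest edgeR adjusted p = 0.203). Its partner nhr-10 had log2 fold changes of -0.48, -0.34 and 0.34 in the same order.

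The main regulator of fatty acid desaturation and oxidation, nhr-49, had 79.2 to 97.3 CPM in the 6 mutant libraries and 73.0 to 109 CPM in the 11 controls. The ranges overlapped throughout, and over all mutants the change was -0.06 on the log2 scale (SE 0.11, edgeR adjusted p = 0.738). Its known partners nhr-66, nhr-80 and nhr-13 did not pass in any mutant comparison. For nhr-66 the change over all mutants was -0.53 on the log2 scale (SE 0.18, edgeR adjusted p = 0.138). The conserved receptors numbered 7 and none passed in a mutant comparison, nor did any of the 4 receptors of defence, hypoxia and foreign compounds (nhr-8, nhr-14, nhr-57 and nhr-86).

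Genes outside the family on which these receptors are known to act were read from the same fits, with controls of both ages pooled. In these fits 51.2% of all genes were lower by sign in the rpl libraries, 55.2% in rps-10(0)/+ and 55.9% in rps-23(0)/+. The propionate shunt genes acdh-1, ech-6, hach-1, hphd-1 and alh-8, which nhr-10 and nhr-68 activate, were lower in all 5 cases in each mutant group by sign. In the rpl libraries acdh-1, hphd-1 and hach-1 passed, in rps-23(0)/+ acdh-1 and hach-1 passed, and in rps-10(0)/+ none did. The acyl-CoA dehydrogenase acdh-1 had 43.1 and 36.8 CPM in the rpl libraries and between 1022 and 2423 CPM with mIn1. This was a log2 fold change of -5.31 (SE 0.64, edgeR adjusted p = 0.000632). In rps-23(0)/+ it had 64.4 and 108 CPM against 776 to 1754 in the tmC5 controls, a log2 fold change of -3.90 (edgeR adjusted p = 0.00618). In rps-10(0)/+ it had 1496 and 1434 CPM. The tmC20 controls had 2351 CPM at day 3, 2251 CPM in the library headed with both ages and 788 CPM at day 4. The mutant libraries were thus below the tmC20 controls labelled L4 and above the adult library. The median log2 fold change of the 5 genes was -1.61, -0.29 and -2.08 in the rpl libraries, in rps-10(0)/+ and in rps-23(0)/+.

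Of 9 methionine cycle and phosphatidylcholine genes, which nhr-114 is known to induce in part, 7 were lower by sign in the rpl libraries, 9 in rps-10(0)/+ and 8 in rps-23(0)/+. The genes metr-1 (methionine synthase), mtrr-1 (its reductase) and pmt-2 (phosphoethanolamine methyltransferase) passed in the first, metr-1 and pmt-2 in rps-23(0)/+ and none in rps-10(0)/+. The RNA of metr-1 was 216 and 343 CPM in the rpl libraries, 263 and 274 CPM in rps-23(0)/+ and 722 and 719 CPM in rps-10(0)/+. Controls had 880 to 1760 CPM with mIn1, 774 to 1364 with tmC5 and 560 to 1063 with tmC20. Of the tmC20 controls, the adult library had 560 CPM and those labelled L4 had 1038 and 1063 CPM, above both rps-10(0)/+ libraries. Over all mutants metr-1 changed by -1.39 on the log2 scale (SE 0.31, edgeR adjusted p = 0.0241). The cystathionine synthase gene cbs-1 had a positive log2 fold change of 1.78 in the rpl libraries that did not pass (edgeR adjusted p = 0.0743).

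Of 5 fatty acid genes that nhr-49 regulates, fat-7, a desaturase, passed over all mutants, with a log2 fold change of -2.08 (SE 0.43, edgeR adjusted p = 0.0180). In single mutants fat-7 did not pass, with edgeR adjusted p values of 0.0528 in the rpl libraries, 0.232 in the rps-23 mutant and 1.00 in the rps-10 mutant. In the last of these it had 21.8 and 25.2 CPM, within the range of 19.8 to 135 CPM in the tmC20 controls. The Mediator subunit mdt-15, a partner of nhr-49, changed over all mutants by -0.04 on the log2 scale (SE 0.17). Of the receptors without an nhr- symbol, daf-12 and sex-1 were in the table and neither passed in a mutant comparison.

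The markers of cell types that were in the table moved with some of these comparisons. Summed over 4 intestinal genes (elt-2, ges-1, ifb-2 and act-5), the RNA was 1974 and 2791 CPM in the rpl libraries, and 799 to 3300 CPM in the mIn1 controls. It was 2462 to 2615 CPM in rps-10(0)/+ against 894 to 2033, and 1655 to 1705 CPM in rps-23(0)/+ against 698 to 2571. The intestinal sum was above all tmC20 controls in rps-10(0)/+ and within the range of the pooled controls in the other mutants. Those ranges span both ages. With mIn1 the sum was 3300 and 2757 CPM at day 3 and 799 and 848 CPM at day 4. The lower rpl library was below both day 3 libraries. With tmC5 it was 710 and 2571 CPM where headed day 3 and 2402 and 698 CPM where headed day 4. The rps-23(0)/+ libraries lay below the higher tmC5 library of each heading and above the lower. Summed over 6 oocyte genes the RNA was 119.3 and 126 CPM in the rpl libraries against 164 to 3923 CPM in the mIn1 controls. Over 4 genes of molting L4 larvae it was 3474 and 7767 CPM against 57.5 to 4087. Summed levels outside the whole range of the controls were also found for other lists. In the rpl libraries 2 of 3 hypodermis genes listed, bli-1 and rol-6, had 3589 to 3773 CPM against 7.04 to 1014, the 3 neuron genes 74.6 to 90.2 CPM against 38.1 to 47.7, and the 3 germline genes 488 to 758 CPM against 810 to 1276. In rps-23(0)/+ the hypodermis genes had 1654 to 2017 CPM against 7.99 to 648, the neuron genes 55.6 to 62.2 CPM against 42.9 to 55.4, and 3 of 4 sperm genes listed 58.4 CPM or more against 27.5 or less. In rps-10(0)/+ the germline genes had 1074 to 1124 CPM against 1211 to 1297, and the molting genes 848 to 1111 CPM against 115 to 830. Muscle, yolk and adult cuticle genes overlapped the controls in every mutant. In whole animals, fewer cells of a type and less RNA per cell cannot be told apart, and the part of these markers in the results was not tested.

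The annotation places nhr-114 within Y45G5AM.9, a gene of the opposite strand that shares none of its exon bases. The end of nhr-17 overlaps 67 bases of nlp-76, a gene of the same strand that was not among the genes counted. Whether reads of nlp-76 were counted to nhr-17 was not tested. The RNA of Y45G5AM.9 did not pass in any mutant, with log2 fold changes of -0.95, 0.04 and -0.49 in the rpl, rps-10 and rps-23 mutant libraries.

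The second question was how the receptor genes differed between day 4 and day 3 controls, which is a comparison of pregravid adults with L4 larvae. Here the family moved largely one way. Of 57 members with enough counts, 22 fell at day 4 by edgeR and 18 by DESeq2, of which 17 were shared, and none rose by either. DESeq2 did not call nhr-23, nhr-35, nhr-68, nhr-88 and nhr-130 and added nhr-143. Over all genes it called 3291 of 7995 in either direction. Of the members higher at day 4, 1 had an unadjusted edgeR p below 0.05 (nhr-71). The share that fell was 38.6% of the members tested, where 24.4% of all genes fell and 21.5% rose. The median log2 fold change of the members was -0.76 and that of all genes -0.03, and 48 of 57 members were lower by sign. With library totals in place of TMM the median of all genes moved to 0.10 and that of the members to -0.64, with 15 members lower and 2 higher (nhr-66 and nhr-71) past the threshold. Without the count filter 26 of 82 members were lower and 1 higher past the threshold, where 3790 of 9531 genes passed. The higher member was nhr-2, at low levels of 0 and 1.66 CPM at day 3 and 4.85 and 8.80 CPM at day 4 with mIn1.

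**Figure D3:**
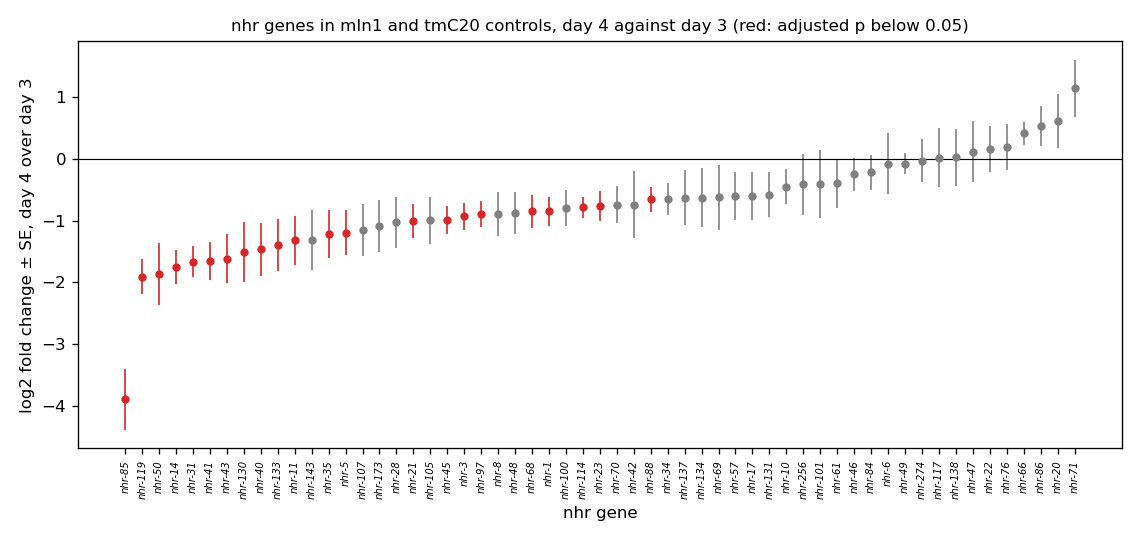
Log2 fold change of day 4 over day 3 (vertical axis, with SE) for the 57 members tested in the mIn1 and tmC20 controls (horizontal axis, in order of change); red points have an edgeR adjusted p below 0.05. All 22 red points are below 0, from -3.89 for nhr-85 to -0.66 for nhr-88, and the highest is nhr-71 at 1.14; with library totals nhr-66 and nhr-71 also passed, on the higher side.

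All 3 molting receptors in the table fell at day 4. The receptor nhr-85, related to vertebrate Rev-erb and expressed in pulses in each larval stage, had 49.4 and 52.2 CPM in the day 3 mIn1 controls and 4.04 and 1.17 CPM in those of day 4. In the tmC20 controls it had 10.8 CPM at day 3 and 2.11 CPM at day 4. The younger libraries were higher within each balancer, with a log2 fold change of -3.89 (SE 0.49, edgeR adjusted p = 0.00108). The tmC5 libraries had 5.60 and 68.6 CPM where headed day 3 and 46.0 and 6.79 CPM where headed day 4, so that they split within each heading.

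The receptor nhr-41, related to the fly gene DHR78, had 38.2 and 44.8 CPM at day 3 and 18.6 and 13.5 CPM at day 4 with mIn1, and 32.4 and 6.32 CPM with tmC20. Its log2 fold change was -1.65 (SE 0.31, edgeR adjusted p = 0.00446). The receptor nhr-23, the counterpart of vertebrate ROR and a driver of the molting cycle, had 73.0 and 45.6 CPM at day 3 and 30.7 and 38.7 CPM at day 4 with mIn1, and 45.1 and 28.8 CPM with tmC20. Its smaller change of -0.76 (SE 0.25, edgeR adjusted p = 0.0366) stayed past the threshold in only 1 of the 6 fits that left out a library. In the mutants, which were L4 larvae, the RNA of nhr-85 was between 9.02 and 31.7 CPM, that of nhr-41 between 22.3 and 64.2 CPM and that of nhr-23 between 30.1 and 52.3 CPM.

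**Figure D4:**
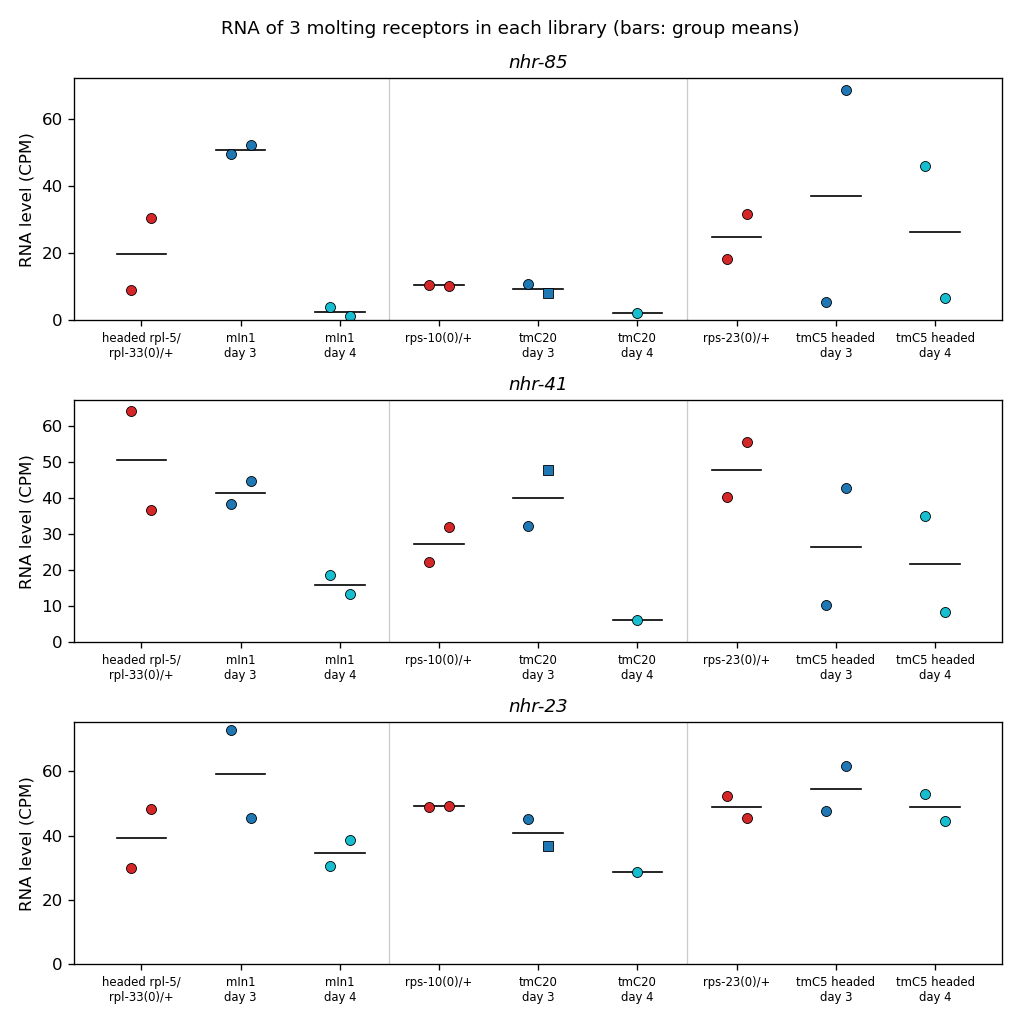
RNA level in CPM (vertical axis) of nhr-85, nhr-41 and nhr-23 in each library, by group (horizontal axis), with mutants in red, day 3 controls in blue and day 4 controls in cyan; each point is a library, the square is the library deposited under both ages, drawn with day 3, and the bars are group means. In the mIn1 and tmC20 controls each gene is higher at day 3 than at day 4, most clearly nhr-85 (49.4 and 52.2 CPM against 4.04 and 1.17 CPM with mIn1), and the tmC5 libraries of each heading lie apart for nhr-85 and nhr-41.

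The other conserved receptors tested, nhr-48, nhr-8 and nhr-6, also had negative changes that did not pass (log2 fold changes -0.88, -0.89 and -0.08). The receptor nhr-91 did not pass the count filter for age, with 27.1 and 21.6 CPM at day 3 and 1.62 and 4.70 CPM at day 4 with mIn1.

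Among metabolic receptors nhr-31, nhr-114 and nhr-68 fell at day 4. The receptor nhr-31, known for its part in excretory canal growth, had 54.99 and 53.9 CPM at day 3 and 14.5 and 14.7 CPM at day 4 with mIn1, and 27.5 and 13.3 CPM with tmC20. These values were closely alike within each mIn1 age and gave a log2 fold change of -1.66 (SE 0.25, edgeR adjusted p = 0.00209). For nhr-114 the change was -0.79 (SE 0.17, edgeR adjusted p = 0.00725), and for nhr-68 -0.85 (SE 0.27, edgeR adjusted p = 0.0332). The change of nhr-49 was -0.08 (SE 0.17, edgeR adjusted p = 0.730), and that of nhr-17, 0.60 lower on the log2 scale, did not pass with both balancers (edgeR adjusted p = 0.226).

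The day 3 and day 4 levels of nhr-17 went opposite ways in the mIn1 and tmC20 controls, a difference that was not tested. With mIn1 it went from 87.6 and 90.4 CPM to 35.5 and 43.4. With tmC20, which had a single library of each age in this test, it went from 21.6 to 42.1 CPM. Within the mIn1 controls alone it fell, with a log2 fold change of -1.13 (edgeR adjusted p = 0.00529).

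In the group of defence and foreign compounds, nhr-14, which is linked to intestinal iron uptake and immunity, had 49.4 and 43.1 CPM at day 3 and 16.2 and 15.3 CPM at day 4 with mIn1, and 24.5 and 4.91 CPM with tmC20. Its log2 fold change was -1.75 (SE 0.27, edgeR adjusted p = 0.00229). The hypoxia target nhr-57 and the pathogen sensor nhr-86 did not pass (log2 fold changes -0.60 and 0.53).

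Of the remaining members that fell, nhr-119 changed most surely, from 73.5 and 43.9 CPM to 15.3 and 15.3 CPM with mIn1 and from 32.4 to 9.83 CPM with tmC20. Its log2 fold change was -1.91 (SE 0.28, edgeR adjusted p = 0.00182). The most abundant of them per length, nhr-97 and nhr-3, had log2 fold changes of -0.89 and -0.93. The other members that passed were nhr-50 (log2 fold change -1.86), nhr-43, nhr-130, nhr-40, nhr-133, nhr-11, nhr-35, nhr-5, nhr-21, nhr-45, nhr-1 and nhr-88 (-0.66), with edgeR adjusted p values of at most 0.0366. The highest changes were those of nhr-71 (1.14), nhr-20 (0.61), nhr-86, nhr-66 (0.41) and nhr-76 (0.19), none past the threshold. By P-box class, 4 of 13 tested members of the largest class fell, 3 of 9 in the class of nhr-17, 3 of 8 in that of nhr-49 and nhr-14, and 3 of 4 in that of the conserved receptors. The share that fell was 38.6% over all tested members and 24.4% over all genes. These classes are small and a difference among them was not tested.

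Of the 22 members, 6 (nhr-14, nhr-31, nhr-41, nhr-85, nhr-114 and nhr-119) passed in every fit that left out a library. The count was 8 without the first mIn1 library of day 3, 12 without the second and 9 without the second mIn1 library of day 4. The receptor daf-12, which controls larval progression and has no nhr- symbol, fell by 1.31 on the log2 scale (SE 0.39, edgeR adjusted p = 0.0262). In the metabolic lists 4 of 5 propionate shunt genes and 8 of 9 methionine cycle genes fell at day 4. Of 5 fatty acid genes, fat-7 rose (log2 fold change 0.89, edgeR adjusted p = 0.0407) and acs-2, an acyl-CoA synthetase, fell (-2.72, edgeR adjusted p = 0.00130).

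Cell type markers moved with age as well. The sum over 6 oocyte genes rose from 164 and 577 CPM to 3764 and 3923 CPM with mIn1, and from 1092 to 4386 CPM with tmC20. The sum over 4 intestinal genes went from 2757 and 3300 CPM to 799 and 848 CPM, and that over 3 body wall muscle genes from 11616 and 12602 CPM to 3953 and 6447 CPM, with mIn1. The sum over the 4 molting genes went from 4050 and 4087 CPM to 57.5 and 103 CPM with mIn1. Their part in the decline of the receptors was not tested.

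The members were unevenly spread over the genome. Of the 82, 30 were on chromosome V, 19 on IV, 15 on X, 7 on II, 6 on I and 5 on III. By comparison 16.7% of all genes measured lay on V, 17.6% on IV, 11.9% on X, 16.8% on II, 18.9% on I and 17.9% on III. Members that fell with age were on X (6), IV (6), V (5), II (3) and I (2). Neither the members tested for age on each chromosome nor the share of all genes that fell there was counted. These numbers are therefore not read as an uneven decline.

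Ribosome footprints of the members were too few for any comparison. All 82 were listed in the Ribo-seq counts, and 35 had no count in the libraries used. The members held 48 of 30234 counts in 8 mutant libraries and 51 of 35775 counts in 12 control libraries. No member exceeded 2 counts in a library, so that no difference was detectable at this depth.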

How the data were processed

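RNA-seq and Ribo-seq reads were mapped by the authors with RiboFlow to WBcel235 transcripts, and the deposited values are raw counts. For Ribo-seq, the authors first collapsed reads sharing a molecular identifier. A further 6 Ribo-seq columns were not used. These are the third columns, headed R4, of groups for which the labels give 2 samples, and which of the 3 columns the labels mean could not be settled. Identical RNA columns were used once. Total RNA counts per library ran from 1017787 to 2384186.

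Counts were filtered with filterByExpr, scaled by TMM and tested over all genes by quasi-likelihood (glmQLFTest, edgeR 4.0.16 under R 4.3.3), with Benjamini-Hochberg adjustment and a threshold of 0.05. All groups shared 1 fit for single mutants. Results over all mutants used 2 groups. The test of age used balancer as covariate, on the mIn1 and tmC20 controls. This departs from the design written first, which included tmC5 replicate 1 but not replicate 2, because the tmC5 day 4 columns share 1 heading and replicate 1 could not be told apart. The mIn1 day 4 columns share a heading too, but both replicates entered. SEs were the log2 fold change divided by the root of F. Fits were run on simulated data with known changes. All simulated libraries were drawn from the same mean profile and spread, without differences of age or balancer. How the fits perform with such differences was therefore not tested.

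The members and lists were chosen with earlier results of these data known. The members named are nhr-114, nhr-17, those past the threshold in any test, the 5 highest and 5 lowest changes over all mutants and for age, the 5 highest levels per length, and the role lists. Genes passing only against controls of a single age (nhr-143, nhr-19 and nhr-104), nhr-121, nhr-2 and acdh-1, metr-1, cbs-1, fat-7, acs-2, mdt-15 and daf-12 among the listed targets were named after their values were seen. The alternatives were library totals, DESeq2 1.42.0, other filters, each control age, separate fits, a replicate block and leaving out each library. Positions and sequences are from the WBcel235 annotation and RefSeq genome.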

Additional observations from a re-analysis of the deposited data

Results flagged for a closer look

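In the mutants, nhr-17 lay above all controls of the balancer in the rpl libraries and in rps-23(0)/+, and below all of them in rps-10(0)/+. The edgeR test of a difference among the mutant groups gave an adjusted p of 0.0783, which does not pass. The same opposite placement was seen for nhr-88, with 25.1 and 31.5 CPM in the rpl libraries against 34.04 to 55.5 CPM with mIn1, and 61.1 and 63.6 CPM in rps-10(0)/+ against 23.2 to 39.2 CPM with tmC20. Its edgeR adjusted p for the difference was 0.721. How many of all genes show such an opposite placement was not counted, so the placement is not read as a result about either gene.

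A single control library lay far from the others of its balancer in 4 of 88 groups of 4 libraries examined over the 44 named members. Chance gives about 1 in 20 for libraries of a kind, and these groups hold controls of both ages. The nhr-80 level was 15.8 CPM in a day 3 mIn1 library and 2.80 CPM in a tmC5 library headed day 3. In the tmC5 controls, nhr-274 had 14.9 CPM and nhr-86 had 20.0 CPM in the library apart from the rest.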

How the results depend on the processing

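Directions held for nhr-114 and nhr-17 in every mutant comparison under all alternatives run, but nhr-17 over all mutants was 0.04 without the rpl libraries (edgeR adjusted p = 0.985), and no change past the threshold changed sign. In the rpl libraries, the count of members past the threshold was 3 with DESeq2, which added nhr-131 and called 568 of all 9276 genes, 1 with library totals, 1 with at least 10 counts in every library (which removes nhr-114), 1 against day 3 controls, 9 against day 4 controls and 0 when fitted alone with its own controls. In rps-23(0)/+ it was 1 with at least 10 counts in every library, 1 against day 4 controls and 0 when fitted alone. Fitted alone, nhr-114 had edgeR adjusted p values of 0.0665 and 0.155 in these groups. Over all mutants it was 0 with at least 10 counts in every library and 3 against day 4 controls (nhr-114, nhr-41 and nhr-48). The difference among mutant groups gave 1 with DESeq2 and 1 against day 4 controls, nhr-17 each time. For age it was 0 with all control columns as headed, where 0 of all genes passed. Leaving out 1 library gave 0 to 2 members in the rpl libraries, 0 to 0 in rps-10(0)/+, 0 to 2 in rps-23(0)/+, 1 to 3 over all mutants, 8 to 26 for age and 0 to 0 for the difference. The 2 calls each in the first and in rps-23(0)/+ were lost without either mutant library of the group. The nhr-17 call in the first was lost without either day 4 mIn1 library and without either rps-23(0)/+ library. In rps-23(0)/+ the nhr-17 call was lost without the first tmC5 library headed day 3 or the second headed day 4, and the nhr-114 call without the second headed day 3.

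No pairing by replicate number was seen, since deviations of same-numbered libraries correlated between -0.04 and 0.05 over all tested genes. The mIn1 controls were not part of this, and whether libraries of the same number shared a batch was not tested. On the columns with a replicate number of their own, the replicate block left 0 members in the rpl libraries, 0 in rps-10(0)/+, 0 in rps-23(0)/+, 0 over all mutants and 0 for the difference. Without the block, an alternative chosen after seeing the data, as were those without the tmC5 controls, the rpl libraries or the library headed with both ages, these columns gave 0, 0, 0, 1 and 0. No paired analysis was possible for age because both day 4 mIn1 columns are headed replicate 1, as are both of tmC5, so that fewer than 2 numbers are shared.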
